A study of Mus musculus with 7 samples.

Results

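The endothelial cell genes are 36 genes known for their expression in the cells that line blood and lymphatic vessels. They were chosen by name, with earlier results of these data known. For each gene 1 probe set was used (the one with 1 gene symbol and the highest mean over the 7 arrays), and all 36 were among the 18193 genes measured. The study sorted tumour cells with the surface antigens Cd34 and Epcam from mouse skin tumours that had been started with the carcinogen DMBA and promoted with TPA. Carcinomas, the malignant form, gave 4 arrays (carcinoma GFP, 1, 2 and 3) and papillomas, the benign form, gave 3 arrays (papilloma GFP, 1 and 2). All groups share this induction and this sort. The labels give no strain, age or pooling, and they do not explain the tag GFP that stands in place of a number on 1 array of each tumour type. The sample descriptions place Nr2f2, a nuclear receptor, before the tumour type without stating a genotype. The GFP-tagged arrays (n = 2) were compared with the untagged arrays (n = 5), and carcinoma arrays with papilloma arrays. The labels do not name the animals behind the arrays. The p-values therefore cover no more than the spread among these 7 samples, which may be technical, and the number of arrays limits the precision.

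Endothelial cells form the inner wall of vessels, hold to each other through a cadherin and immunoglobulin-like adhesion proteins, and are kept quiescent or made to sprout by the Tie receptors, the apelin receptor and receptors for vascular growth factors. Their identity is set by transcription factors of the ETS and SOXF families. Tip cells lead a vascular sprout and make a set of secreted proteins, while lymphatic endothelial cells are set apart by the homeobox factor Prox1. In skin tumours vessels lie in the stroma, outside the epithelium. Endothelial cells carry Cd34 and lack Epcam, the epithelial adhesion molecule.

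Levels are RMA values on the log2 scale, so a difference of 1 unit is a doubling; a level of a probe set cannot be set against that of another gene's probe set, and RMA values have no true 0. The tagged arrays stood apart from the others in more than endothelial genes. The 3' minus 5' difference of the Gapdh control probe sets, which grows when the labelled RNA is shorter, was 3.19 on carcinoma GFP and 3.19 on papilloma GFP, against -0.04 to 0.06 in the untagged arrays. The same difference for the actin control was 2.21 and 2.58 in these tagged arrays and 0.51 to 0.86 in the untagged ones. Because both tagged arrays had this mark and no untagged array did, the tag and RNA length cannot be told apart here. Epcam was 9.59 on the carcinoma GFP array and 8.28 on the papilloma GFP array, against 10.52 to 11.97 in the untagged arrays, a difference of -2.40 (limma adjusted p = 0.0144), while the basal keratin Krt5 stood at 12.98 and 12.91, against 13.01 to 13.73, and did not pass the test (limma adjusted p = 0.313).

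Nearly the whole set of endothelial genes was higher in the GFP-tagged arrays. Of the 36 genes, 35 rose and 0 fell (limma with tumour type as a covariate, adjusted p under 0.05 over all genes), against 11.9% called higher and 7.93% called lower over all 18193 genes. Sox7 was the exception. In the 35 genes both tagged arrays lay above all untagged arrays, as in 3819 of all 18193 genes. Counted in either direction, the groups did not overlap in 40.9% of all genes. The median difference of the 36 genes was 4.68, against -0.05 over all genes, and 26 of the 36 differed by more than 4 log2 units. On the chosen probe sets Aplnr had the largest difference of all genes measured, Vwf ranked 4 and Cd93 ranked 6, and 17 of the 36 genes were among the 100 largest. These are differences of RMA values, and no detection calls were used, so whether low untagged levels lie above background is not known and no fold is given. The mean level of the 36 genes was 10.36 on carcinoma GFP and 10.21 on papilloma GFP and lay between 5.28 and 5.78 in the untagged arrays. Since RNA of sorted cells was measured in bulk, a larger number of endothelial cells and more endothelial RNA per cell cannot be told apart. An exact two-sided permutation test of a single gene over the 21 splits of 2 against 5 arrays gave p = 0.0476 for each of these 35 genes, the smallest value it allows. The direction of all genes together depended on scaling: 60.0% of 3601 calls were higher as deposited, 48.6% of 4391 after a second quantile normalization and 41.9% of 4201 with arrays centred on the median gene, where the median over all genes was -0.29. The endothelial calls numbered 35 under each of these scalings. With only 1 tagged array the number of genes called dropped to 861 without carcinoma GFP, where 30 of the 36 were called, and to 1462 without papilloma GFP, where 33 were.

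**Figure D1:**
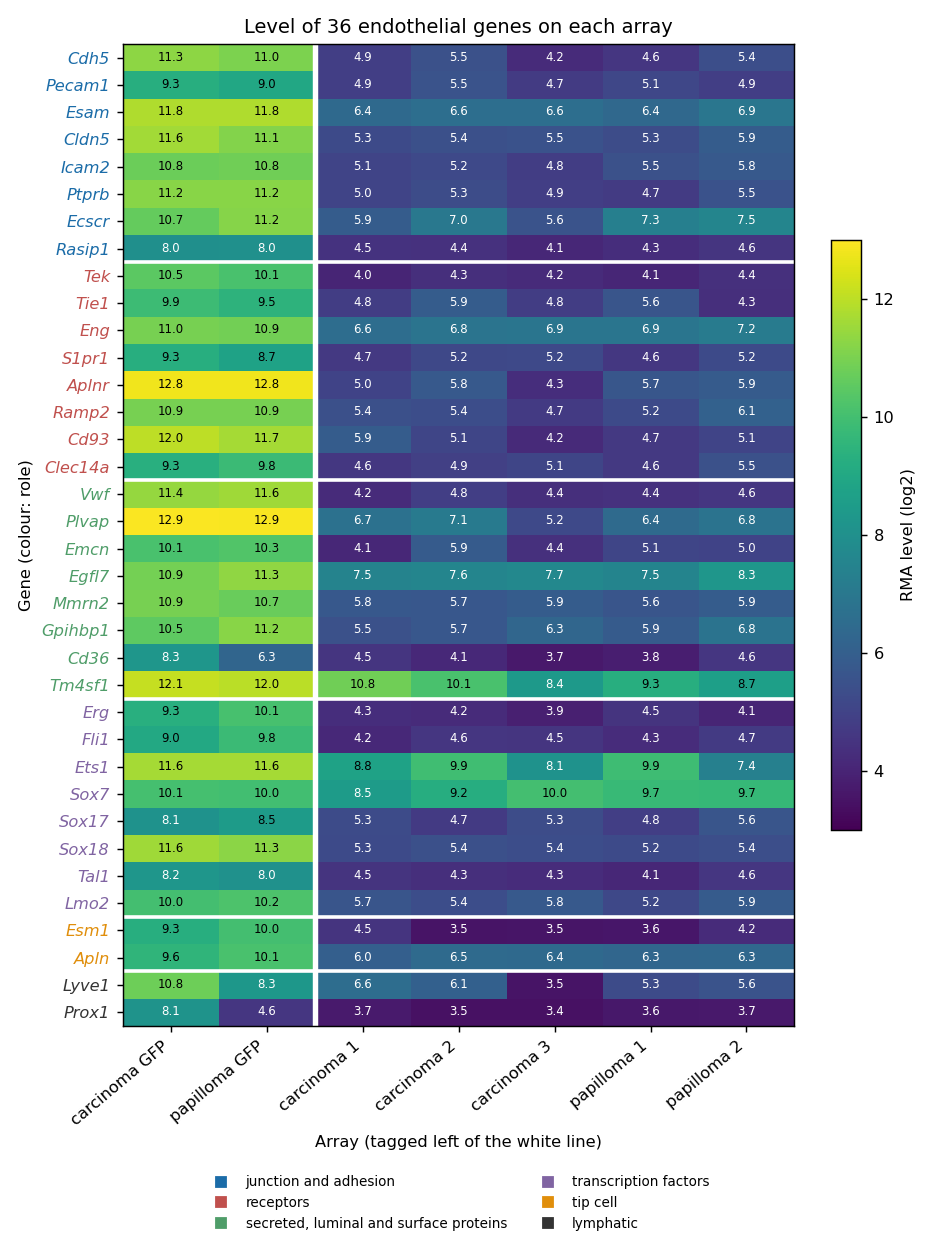
RMA level (log2, colour and printed value) of each of the 36 genes (rows, coloured by role) on each of the 7 arrays (columns, tagged arrays left of the white line). Both tagged columns are brighter than all untagged columns in 35 rows; Sox7, Ets1 and Tm4sf1 are also bright in untagged arrays, and Prox1 and Lyve1 differ between the tagged columns.

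All 8 genes of endothelial junctions and adhesion rose, with differences from 3.62 to 6.24. Cdh5, the cadherin of endothelial adherens junctions, was 11.30 on the carcinoma GFP array and 11.02 on the papilloma GFP array, against 4.86, 5.47 and 4.23 on the untagged carcinoma arrays and 4.58 and 5.42 on the untagged papilloma arrays. The groups did not overlap, and the fitted difference was 6.24 (SE 0.38, limma adjusted p = 0.000137). Ptprb, a receptor phosphatase that acts on this cadherin and on Tek, was 11.23 on the carcinoma GFP array and 11.22 on the papilloma GFP array, against 5.04, 5.32 and 4.85 on the untagged carcinoma arrays and 4.75 and 5.51 on the untagged papilloma arrays, and differed by 6.12 (SE 0.25). Cldn5, the claudin of endothelial tight junctions, reached 11.60 and 11.13 in the tagged arrays, against 5.26 to 5.91 in the untagged arrays. None of these genes had an untagged array near the tagged ones. Esam and Icam2, adhesion proteins of the immunoglobulin family, differed by 5.21 (SE 0.20) and 5.47 (SE 0.21). Pecam1, an adhesion protein also found on platelets and leukocytes, was 9.27 on the carcinoma GFP array and 8.99 on the papilloma GFP array, against 4.87, 5.55 and 4.74 on the untagged carcinoma arrays and 5.14 and 4.87 on the untagged papilloma arrays, a difference of 4.10 (SE 0.26). Ecscr, a surface protein of endothelial cells, and Rasip1, a small GTPase effector needed for vessel lumens, differed by 4.15 (SE 0.40) and 3.62 (SE 0.18). Ecscr varied most of the 8 among the untagged arrays, from 5.56 in carcinoma 3 to 7.53 in papilloma 2.

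All 8 receptors rose, by 4.03 to 7.40. Aplnr, the receptor for apelin, was 12.77 on the carcinoma GFP array and 12.79 on the papilloma GFP array, against 5.02, 5.78 and 4.32 on the untagged carcinoma arrays and 5.67 and 5.85 on the untagged papilloma arrays, a difference of 7.40 (SE 0.39, limma adjusted p = 8.21e-05). Both tagged arrays lay close together and far above the untagged arrays, among which carcinoma 3 was lowest. Tek, the receptor for angiopoietins, was 10.49 on the carcinoma GFP array and 10.14 on the papilloma GFP array, against 4.04, 4.34 and 4.24 on the untagged carcinoma arrays and 4.07 and 4.40 on the untagged papilloma arrays, a difference of 6.11 (SE 0.19). Its relative Tie1 was 9.85 and 9.48 in the tagged arrays and 4.35 to 5.91 in the untagged arrays, a smaller step of 4.59 (SE 0.44). Cd93, a lectin-like receptor of sprouting endothelium, differed by 6.86 (SE 0.43), and Clec14a, another lectin-like receptor, by 4.56 (SE 0.27). Among the untagged arrays carcinoma 1 was highest for Cd93, at 5.92. Ramp2, which makes the calcitonin receptor-like receptor respond to adrenomedullin, differed by 5.54 (SE 0.33). Eng, a co-receptor for ligands of the BMP and TGF-beta family, and S1pr1, a receptor for sphingosine 1-phosphate that steadies the barrier, differed by 4.03 (SE 0.19) and 4.05 (SE 0.26), and neither overlapped between the groups.

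Secreted, luminal and other surface proteins also rose in all 8 cases, by 2.65 to 7.01. Vwf, the clotting glycoprotein stored in endothelial granules and in platelets, was 11.42 on the carcinoma GFP array and 11.59 on the papilloma GFP array, against 4.22, 4.85 and 4.36 on the untagged carcinoma arrays and 4.42 and 4.60 on the untagged papilloma arrays, a difference of 7.01 (SE 0.22, limma adjusted p = 2.24e-05). Plvap, the protein of diaphragms in fenestrated endothelium, was 12.93 on the carcinoma GFP array and 12.90 on the papilloma GFP array, against 6.72, 7.11 and 5.22 on the untagged carcinoma arrays and 6.44 and 6.83 on the untagged papilloma arrays, a difference of 6.43 (SE 0.49). The tagged arrays differed from each other by -0.17 for Vwf and 0.03 for Plvap (carcinoma GFP minus papilloma GFP). Emcn, a sialomucin of capillaries and veins, and Mmrn2, an endothelial matrix protein that binds Cd93 and Clec14a, differed by 5.29 (SE 0.45) and 5.05 (SE 0.17). Gpihbp1, which carries lipoprotein lipase to the capillary lumen, differed by 4.77 (SE 0.33), and Egfl7, a secreted protein of the vessel wall, by 3.40 (SE 0.23). Egfl7 lay at 7.49 to 8.25 in the untagged arrays on its chosen probe set, highest in papilloma 2, and at 5.49 to 5.76 on its dimmest probe set. Cd36, a fatty acid transporter shared with macrophages, platelets and adipocytes, was 8.26 on the carcinoma GFP array and 6.27 on the papilloma GFP array, against 4.55, 4.13 and 3.70 on the untagged carcinoma arrays and 3.83 and 4.58 on the untagged papilloma arrays. It was the gene of this group in which the tagged arrays differed most, and its call ended without carcinoma GFP (difference 2.07, limma adjusted p = 0.0789). Tm4sf1, a tetraspanin-like protein that epithelial tumour cells make too, was 12.13 on the carcinoma GFP array and 11.97 on the papilloma GFP array, against 10.85, 10.12 and 8.38 on the untagged carcinoma arrays and 9.29 and 8.65 on the untagged papilloma arrays. It was bright on every array, and its call, with a difference of 2.65 (SE 0.63, limma adjusted p = 0.0278), ended without carcinoma GFP (3.0, adjusted p = 0.175), papilloma GFP (2.34, 0.216), carcinoma 2 (2.76, 0.0505) or papilloma 2 (2.48, 0.0531).

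Of the 8 transcription factors 7 rose, and the SOXF family split. Sox18 was 11.56 on the carcinoma GFP array and 11.27 on the papilloma GFP array, against 5.26, 5.43 and 5.35 on the untagged carcinoma arrays and 5.24 and 5.39 on the untagged papilloma arrays, a difference of 6.09 (SE 0.16) with a limma adjusted p of 1.41e-05, the smallest of the 36 genes. Sox17, a factor of arterial endothelium, was 8.10 and 8.51 in the tagged arrays and 4.71 to 5.65 in the untagged arrays, a difference of 3.12 (SE 0.29) on its brightest probe set. Sox7, the other family member, was 10.06 on the carcinoma GFP array and 9.96 on the papilloma GFP array, against 8.49, 9.23 and 10.01 on the untagged carcinoma arrays and 9.73 and 9.69 on the untagged papilloma arrays. Its untagged level already lay near that of the tagged arrays, carcinoma 3 was above papilloma GFP, and the difference of 0.55 (95% interval -0.38 to 1.48) did not pass (limma adjusted p = 0.392). The ETS factors Erg and Fli1, which keep endothelial genes active, were 9.32 on the carcinoma GFP array and 10.09 on the papilloma GFP array for Erg, against 3.88 to 4.52 in the untagged arrays, and 9.03 on the carcinoma GFP array and 9.80 on the papilloma GFP array for Fli1, against 4.16 to 4.70. They differed by 5.47 (SE 0.24) and 4.94 (SE 0.24), and papilloma GFP was the higher tagged array for both. Ets1, an ETS factor that lymphocytes and tumour epithelium also make, was 11.64 on the carcinoma GFP array and 11.64 on the papilloma GFP array, against 8.76, 9.95 and 8.11 on the untagged carcinoma arrays and 9.90 and 7.35 on the untagged papilloma arrays. It was bright on all arrays, lowest in papilloma 2 and carcinoma 3. Its difference of 2.85 (SE 0.74, limma adjusted p = 0.0383) lost its call without carcinoma GFP (3.02, adjusted p = 0.246), papilloma GFP (2.70, 0.234), carcinoma 1 (2.81, 0.0768) or carcinoma 3 (2.65, 0.0593). Tal1 and Lmo2, partners in a complex that blood and endothelial precursors share, differed by 3.79 (SE 0.19) and 4.54 (SE 0.25), without overlap.

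Promoters of the genes were read for short motifs, and whether the motifs bear on the differences was not tested. RefSeq promoter sequences of build GRCm38.p6 were matched for 15 of the 36 genes, with 21 start sites, and the 250 bases before each start were searched on both strands. The ETS motif ACAGGAA occurred in 6 of the 21 windows (2 starts of Egfl7 and 1 each of Emcn, Tie1, Rasip1 and Esm1), against 7.2% of 32851 promoters of the same length. The other ETS form, CCGGAAG, occurred in 0 of 21, against 6.91%, the SOX motif AACAAT in 4, against 9.42%, the GATA motif AGATAA in 2, against 9.99%, and the TATA box TATAAA in 2, against 12.4%. Matches of different motifs may share letters, and a match is a description, not a site of binding. The promoters that hold ACAGGAA are shown 5' to 3' along each gene, 1 per gene, with capitals marking the motif or its reverse complement TTCCTGT.
Tie1, chr4:118489850-118490099, strand minus: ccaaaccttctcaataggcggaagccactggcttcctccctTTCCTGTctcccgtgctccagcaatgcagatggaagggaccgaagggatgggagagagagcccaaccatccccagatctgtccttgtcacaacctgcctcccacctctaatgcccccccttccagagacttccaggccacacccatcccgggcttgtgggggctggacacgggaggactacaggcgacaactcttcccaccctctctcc
Emcn, chr3:137340828-137341077, strand plus: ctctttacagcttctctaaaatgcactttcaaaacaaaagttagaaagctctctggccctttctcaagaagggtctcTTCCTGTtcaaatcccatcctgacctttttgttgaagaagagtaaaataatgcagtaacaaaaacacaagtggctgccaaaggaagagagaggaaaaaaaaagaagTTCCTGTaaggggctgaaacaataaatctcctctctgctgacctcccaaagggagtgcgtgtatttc
Egfl7, chr2:26583615-26583864, strand plus: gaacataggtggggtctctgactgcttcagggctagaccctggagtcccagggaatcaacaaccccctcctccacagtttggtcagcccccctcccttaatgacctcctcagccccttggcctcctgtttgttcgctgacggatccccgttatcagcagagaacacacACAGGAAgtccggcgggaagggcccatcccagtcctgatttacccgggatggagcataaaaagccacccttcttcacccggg
Rasip1, chr7:45627287-45627536, strand plus: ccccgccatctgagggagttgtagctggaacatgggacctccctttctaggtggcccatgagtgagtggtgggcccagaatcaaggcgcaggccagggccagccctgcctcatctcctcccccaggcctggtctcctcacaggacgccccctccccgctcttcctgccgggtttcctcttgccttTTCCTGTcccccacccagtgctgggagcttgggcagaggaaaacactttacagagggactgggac
Esm1, chr13:113209409-113209658, strand plus: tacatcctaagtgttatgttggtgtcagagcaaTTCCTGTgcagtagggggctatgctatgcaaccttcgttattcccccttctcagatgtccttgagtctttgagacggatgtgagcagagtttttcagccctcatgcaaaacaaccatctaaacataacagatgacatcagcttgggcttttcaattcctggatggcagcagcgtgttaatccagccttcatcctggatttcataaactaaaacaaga
Emcn holds 2 such matches and the other 4 genes 1 each in the window shown. Tie1, Emcn, Egfl7, Rasip1 and Esm1 differed by 4.59, 5.29, 3.40, 3.62 and 5.74 between tagged and untagged arrays. The other genes with a promoter read differed by 2.65 (Tm4sf1) to 6.11 (Tek), and no promoter was read for 21 of the 36 genes.

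The tip cell genes both rose. Esm1, a proteoglycan secreted by sprouting endothelium, was 9.27 on the carcinoma GFP array and 10.02 on the papilloma GFP array, against 4.50, 3.51 and 3.55 on the untagged carcinoma arrays and 3.61 and 4.24 on the untagged papilloma arrays, a difference of 5.74 (SE 0.35, limma adjusted p = 0.000145). Apln, the ligand of Aplnr, was 9.56 on the carcinoma GFP array and 10.11 on the papilloma GFP array, against 6.04, 6.46 and 6.42 on the untagged carcinoma arrays and 6.29 and 6.34 on the untagged papilloma arrays, a difference of 3.51 (SE 0.21, limma adjusted p = 0.000127). Papilloma GFP was above carcinoma GFP in both genes, with carcinoma GFP minus papilloma GFP at -0.75 and -0.55, with 1 array each.

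The lymphatic genes were called higher with the tag, at levels that differed between the tagged arrays. Prox1, the homeobox factor that sets lymphatic identity, was 8.14 on the carcinoma GFP array and 4.59 on the papilloma GFP array, against 3.70, 3.46 and 3.44 on the untagged carcinoma arrays and 3.64 and 3.70 on the untagged papilloma arrays. Carcinoma GFP was far above the rest, and papilloma GFP lay only a little above the highest untagged array. The fitted difference of 2.87 (SE 0.73, limma adjusted p = 0.0351) rested on carcinoma GFP: without that array it was 0.92 (adjusted p = 0.138), and without papilloma GFP it was 4.61 (adjusted p = 0.00155). The Prox1 call also ended without carcinoma 1 (2.81, adjusted p = 0.0726), carcinoma 2 (2.75, 0.0751) or carcinoma 3 (2.74, 0.0596). Lyve1, the hyaluronan receptor of lymphatic endothelium and of some macrophages, was 10.78 on the carcinoma GFP array and 8.29 on the papilloma GFP array, against 6.59, 6.06 and 3.54 on the untagged carcinoma arrays and 5.28 and 5.57 on the untagged papilloma arrays. Of the 36 genes it varied most among the untagged arrays, from carcinoma 3 up to carcinoma 1. Its difference of 4.19 (SE 0.90, limma adjusted p = 0.0201) lost its call without carcinoma GFP (2.86, adjusted p = 0.286). The mean level of the macrophage list, which shares Lyve1-bearing cells, was 7.69 on carcinoma GFP and 7.54 on papilloma GFP. It was 5.01 to 6.53 in the untagged arrays, with carcinoma 1 the highest and carcinoma 3 the lowest of these. The tagged means cover opposed genes: carcinoma GFP minus papilloma GFP ran from -1.6 for Cd163 to 1.4 for Mrc1. Its median was 0.18, with 6 of 8 genes higher on carcinoma GFP. The part of macrophages in the Lyve1 values was not tested.

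**Figure D2:**
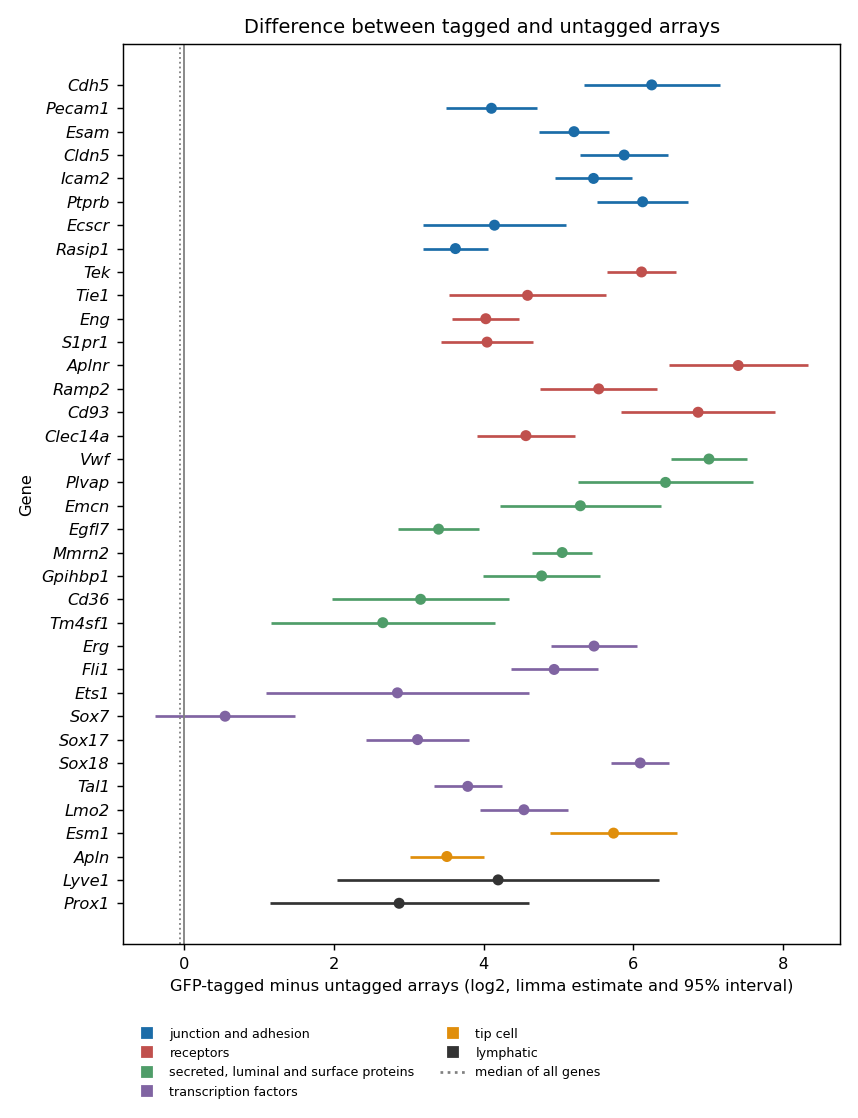
Limma difference, GFP-tagged minus untagged arrays with tumour type as a covariate (log2, points), and its 95% interval (lines) for the 36 genes, coloured by role; the dotted line is the median of all 18193 genes. All genes but Sox7 lie clear of 0, from 2.65 for Tm4sf1 to 7.40 for Aplnr.

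Other probe sets of the same genes gave the same order of the groups in most cases. The array held 66 probe sets for the 36 genes, and 17 genes had more than 1. Of the 30 probe sets that were not chosen, 30 had a higher tagged mean, 23 by more than 2 log2 units, and 27 had both tagged arrays above all untagged arrays. On the chosen probe sets of all genes, 3819 of 18193 had both tagged arrays above all untagged arrays. The 3 that overlapped, 1 each of Cd93, Tm4sf1 and Prox1, differed by 0.21, 0.07 and 0.18 between the group means. The second Sox7 probe set did not overlap, unlike the chosen one. It was 4.44 on carcinoma GFP and 5.30 on papilloma GFP, against at most 4.37 in the untagged arrays, and differed by 0.76 in group means. The size depended on the probe set for several genes. Sox17 differed by 3.14 on its chosen probe set and by 6.92 on its other one, and Cdh5 by 6.25 and 1.98, in group means. Aplnr differed by 7.45 on its chosen probe set and by 4.31 on its other one. With all probe sets averaged its limma difference was 5.85, below Vwf at 7.01. Averaging all probe sets of a gene gave limma differences of 4.09 for Cdh5, 4.07 for Cd93, 5.01 for Sox17, 1.75 for Prox1 and 1.74 for Tm4sf1, and with the most variable probe set Eng gave 6.16 and Sox17 6.90, each still called.

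In 23 of the 36 genes the 5 untagged arrays spanned less than 1 log2 unit, against 69.1% of all genes, and the standard deviation exceeded 1 only for Tm4sf1, Ets1 and Lyve1. Papilloma 2 was the highest untagged array for 19 of the 36 genes, against 31.1% of all genes, carcinoma 2 for 9, against 17.3%, and carcinoma 1 for 5 (Cd93, Tm4sf1, Esm1, Lyve1 and Prox1), against 15.9%. Carcinoma 3 was highest for Mmrn2 and Sox7, against 13.4% of all genes, and papilloma 1 for Erg alone, against 22.4%. Carcinoma 3 was the lowest for 14, against 24.7% of all genes. The fibroblast list had its highest untagged mean in papilloma 2 too (8.33) and its lowest in carcinoma 3 (6.11), and its part in this order was not tested.

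No endothelial gene passed the test of carcinoma against papilloma arrays. Limma called 0 of the 36 genes and 0 of all 18193 genes (0.00%), the smallest unadjusted p among the 36 was 0.379, and at an unadjusted p under 0.05 there were 0 of the 36 and 112 genes in all (0.616%). That fit takes the tag's difference into its error. No endothelial gene had carcinoma and papilloma arrays without overlap, against 1.42% of all genes. The median difference of the 36 genes was -0.48, against -0.02 over all genes, and 4 of 36 had a higher carcinoma mean (Cd36, Tm4sf1, Lyve1 and Prox1), against 46.9% of all genes. Tagged arrays are 1 of 4 in carcinoma and 1 of 3 in papilloma. The median stood at -0.07 once the tag entered as a covariate, among untagged arrays at -0.08, and within the tagged pair at 0.01. It was 1.12 without papilloma GFP and -1.80 without carcinoma GFP, and between -1.46 and -0.03 without any other single array. Cdh5 averaged 6.46 ± 3.26 (SD, n = 4) over the carcinoma arrays and 7.01 ± 3.50 (SD, n = 3) over the papilloma arrays (exact two-sided permutation p = 0.714 over 35 splits). Its difference of -0.54 had a 95% interval of -5.71 to 4.62, so a change of several log2 units either way would not have been seen with all 7 arrays. With the tag as a covariate the Cdh5 difference was -0.02 (SE 0.35), and the 36 genes ran from -1.04 for Ecscr to 0.95 for Prox1, with 0 calls. In that fit Ecscr (SE 0.37) had an unadjusted limma p of 0.0265, the smallest of the 36 and the only one under 0.05, against 1.82% of all genes. Ecscr, the lowest, was 5.93, 7.01 and 5.56 in untagged carcinoma arrays and 7.31 and 7.53 in untagged papilloma arrays.

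Within the tagged pair the lymphatic genes and Cd36 were higher on carcinoma GFP, and on the chosen probe sets the other members differed by less than 1 log2 unit. For 33 of the 36 genes carcinoma GFP minus papilloma GFP lay between -0.77 (Fli1) and 0.51 (S1pr1), and the other 3 were Prox1 at 3.55, Lyve1 at 2.49 and Cd36 at 1.98. A difference above 1 log2 unit in this direction occurred in these 3 genes and in 3.06% of all genes, one of that size in the other direction in 0 of the 36 and 0.627% of all genes, and Prox1 ranked 2 of all genes toward carcinoma GFP. Among the untagged arrays the same genes differed by -0.14, -0.03 and -0.08 (carcinoma minus papilloma, 3 against 2 arrays). The second Lyve1 probe set gave 2.25 within the tagged pair, the 2 further probe sets of Prox1 gave 1.73 and 0.17, and those of Cd36 1.61 and 2.25. Of the other members, further probe sets passed 1 log2 unit for Egfl7 (-1.40), Ptprb (-1.02), Ets1 (-1.01) and Tm4sf1 (1.13), while their chosen probe sets gave -0.41, 0.01, -0.01 and 0.15. The test of the difference between tagged and untagged arrays, the interaction of tag and tumour type, gave 3.68 (SE 0.37) for Prox1, 2.52 (SE 1.66) for Lyve1 and 2.06 (SE 0.65) for Cd36. It called 0 of 18193 genes (0.00%; smallest limma adjusted p = 0.9998). At an unadjusted p under 0.05 stood Prox1 and Cd36 of the 36 genes and 2.14% of all genes. Each interaction rests on 1 tagged array per tumour type. Its SE and p come from the spread of the untagged arrays, which for Prox1 spanned only 3.44 to 3.70, and hold no spread between tagged samples, so a difference between tumours and a difference between these 2 sorts cannot be told apart.

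Markers from the separate lymphatic list, of which 5 of 6 genes were measured, had the same sign. Mmrn1, a secreted protein of lymphatic endothelium, was 10.34 on the carcinoma GFP array and 7.75 on the papilloma GFP array, against 3.74 to 4.03 in the untagged arrays, with an interaction of 2.77 (SE 0.35). Reln, a secreted glycoprotein that lymphatic endothelium makes, was 11.14 on the carcinoma GFP array and 8.10 on the papilloma GFP array, against 4.67 to 5.48, with an interaction of 2.94 (SE 0.58). Flt4, the receptor for the lymphatic growth factor Vegfc that tumour blood vessels also carry, was 11.60 on the carcinoma GFP array and 10.64 on the papilloma GFP array, against 5.25 to 6.52, with an interaction of 1.47 (SE 0.65). None of these interactions passed adjustment in limma, and their SE too comes from the untagged arrays alone. All 5 measured genes of the list were higher in carcinoma GFP than in papilloma GFP, but Pdpn and Nrp2, which keratinocytes make as well, by only 0.65 and 0.59. Stromal lists moved in the same direction within the pair: the fibroblast list had a median of 0.88 (9 of 10 genes higher in carcinoma GFP) and the pericyte and smooth muscle list 0.54 (11 of 11), against 0.05 over all genes. Their part in the lymphatic difference was not tested.

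**Figure D3:**
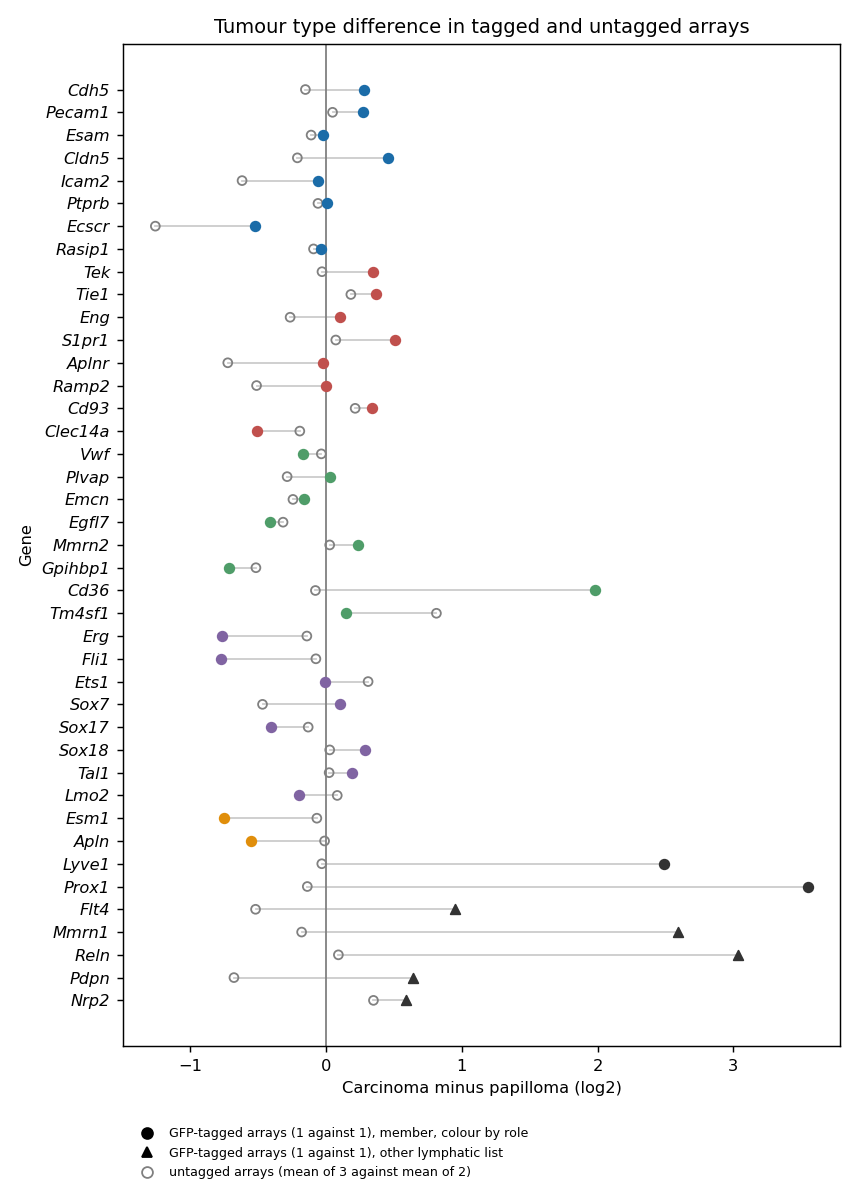
Carcinoma minus papilloma (log2) for the 36 genes and the 5 measured genes of the separate lymphatic list: filled symbols are the GFP-tagged arrays, 1 against 1, and open circles the untagged arrays, mean of 3 against mean of 2. Prox1 (3.55), Reln (3.03), Mmrn1 (2.59), Lyve1 (2.49) and Cd36 (1.98) lie to the right in the tagged arrays, while their untagged values lie between -0.18 and 0.09.

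Other endothelial genes, from lists that hold none of the 36, rose with the tag as well: 31 of 36 measured genes were called higher and 0 lower, with a median of 4.35. Over all genes 11.9% were called higher and 7.93% lower, with a median of -0.05. These lists too were chosen with earlier results of these data known. All 11 pan-endothelial genes were called, among them Kdr and Flt1, receptors for vascular growth factors, at 6.08 (SE 0.32) and 5.70 (SE 0.28), and Nos3, the endothelial nitric oxide synthase, at 4.36 (SE 0.23). All 8 arterial genes were called, with the gap junction proteins Gja4 at 4.95 and Gja5 at 0.78 and the ligand Efnb2 at 2.34. Of the 6 venous and adhesion genes 4 were called. Ackr1, a chemokine receptor of venules, differed by 2.12 (SE 0.34), whereas Ephb4, the receptor for Efnb2, differed by -0.19 (SE 0.21, limma adjusted p = 0.592) and Nr2f2, which directs venous identity, by 1.21 (SE 0.44, limma adjusted p = 0.107), and neither passed. Of the 6 further tip cell genes 5 were called, with Angpt2, a ligand of Tek, at 4.06, the potassium channel subunit Kcne3 at 5.59 and the basement membrane protein Nid2 at 5.91. Of the 5 measured lymphatic genes 3 were called, Flt4 at 5.40, Mmrn1 at 5.20 and Reln at 4.59.

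Markers of other cell types moved with the tag beside the endothelial genes. The shares over all genes were 11.9% called higher and 7.93% called lower. In the fibroblast list 8 of 10 genes were called higher, with a median of 4.04, and its mean level was 11.67 on carcinoma GFP and 10.75 on papilloma GFP and 6.11 to 8.33 in the untagged arrays. Col1a1 and Col1a2, chains of collagen I, differed by 4.74 and 3.91, and the growth factor receptor Pdgfra by 4.06. In the pericyte and smooth muscle list 8 of 11 were called higher, with Pdgfrb, the receptor that brings pericytes to vessels, at 6.21 (SE 0.65) and Rgs5 at 4.99 (SE 0.75), while Cspg4 at 0.83 did not pass. The mean of that list was 9.51 on carcinoma GFP and 8.98 on papilloma GFP and 5.77 to 6.83 in the untagged arrays. Keratinocyte markers were lower, with 8 of 10 called, a median of -1.36 and means of 10.67 on carcinoma GFP and 10.59 on papilloma GFP, against 11.92 to 12.19 in the untagged arrays. Krt14, the partner of Krt5, differed by -0.98.

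In each list of blood cell, adipocyte and melanocyte markers at least 1 gene was called higher, against 11.9% of all genes. The lists are short, so 1 call does not set a list apart from that share. Of 7 leukocyte genes 2 were called higher (median 1.41), with Ptprc, the common leukocyte antigen, at 3.11, and Cd53 at 1.41 and Laptm5 at -0.18 short of the threshold. Of 8 macrophage genes 4 were called (median 1.48), with Csf1r, the receptor for a macrophage growth factor, at 3.21 and Adgre1 at 1.03, whereas Cd68 differed by 0.06. In the megakaryocyte and platelet list, whose cells share Vwf, Pecam1 and Cd36 with endothelium, 1 of 6 genes was called (Pf4, 2.11), and Itga2b and Gp9 differed by 0.47 and -0.48 without passing. Its mean level was 6.07 on carcinoma GFP and 6.04 on papilloma GFP and 5.70 to 6.17 in the untagged arrays. T cell, mast cell, erythroid, adipocyte and melanocyte lists had 2 of 4, 3 of 5, 1 of 3, 1 of 3 and 2 of 5 measured genes called higher, with medians of 0.96, 1.79, 0.07, -0.17 and 0.34. Among the T cell receptor chains Cd3d and Cd3g were called, at 1.11 and 1.67, and Cd3e differed by 0.22. Of the mast cell genes Cpa3, a granule protease, and Kit, the stem cell factor receptor that melanocytes share, were called, at 2.18 and 3.57, and the protease Mcpt4 differed by 0.41. The erythroid genes Alas2, Klf1 and Slc4a1 differed by 1.48, -0.61 and 0.07, of which Alas2, the first enzyme of haem synthesis in red cells, was called. Adipoq, the adipocyte hormone, was called at 2.16, while Cidec and Retn differed by -0.17 and -0.30. The pigment enzymes Dct and Tyrp1 were called, at 1.46 and 1.86, and the melanosome protein Pmel differed by 0.32. The part of these cells in the genes they share with endothelium was not tested.

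**Figure D4:**
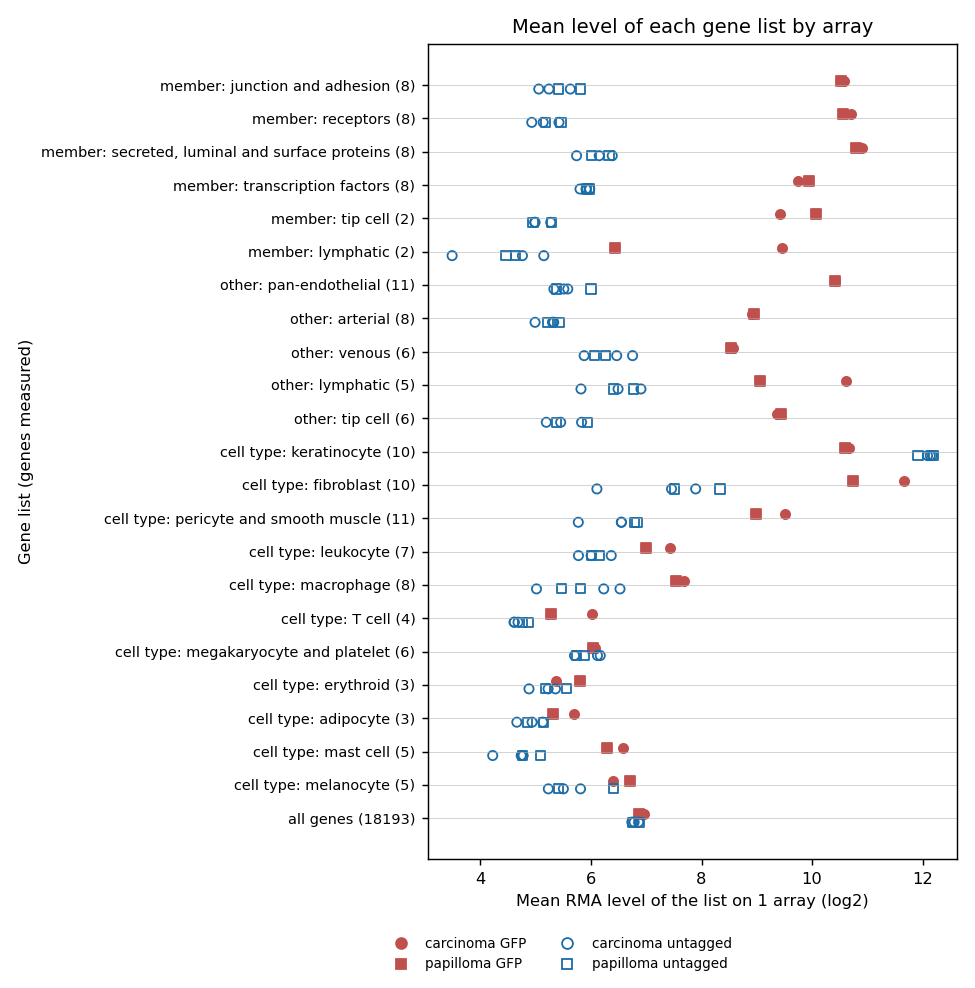
Mean RMA level (log2) over the genes of each list, 1 point per array; filled red symbols are the GFP-tagged arrays, open blue symbols the untagged arrays, circles carcinoma and squares papilloma. The tagged arrays lie above all untagged arrays for each endothelial list and for fibroblast and pericyte lists, and below them for keratinocyte markers. They also lie above them for the leukocyte, macrophage, T cell, mast cell and adipocyte lists. For the megakaryocyte and platelet, erythroid and melanocyte lists the groups overlap. The lymphatic lists separate carcinoma GFP from papilloma GFP.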

How the data were processed

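RNA of sorted cells was measured on 7 Affymetrix mouse arrays. The authors ran RMA, which corrects background, equalises arrays and summarises probe sets, per the labels' protocols. RMA and affy stand in the submitters' processing notes. The deposited values are log2, as read from their range of 2.72 to 14.51, and versions, chip definition and the set of arrays normalized jointly were not given in the sources used here. Platform annotation of 2016 gave 1 symbol to 34945 of 45101 probe sets, updated through gene identifiers to the RefSeq table of GRCm38.p6. Names rest on the standard design, whereas the labels name the strip version.

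Limma 3.58.1 in R 4.3.3 (lmFit, eBayes) was fitted to all 18193 genes with Benjamini-Hochberg adjustment and a threshold of 0.05: tagged against untagged arrays with tumour type as a covariate, carcinoma against papilloma without covariates, and their interaction. The procedure was tested on simulated data. Genes named are the 36 members and the first 3 measured genes of each other list. Genes outside that rule (Pdpn, Nrp2, Mrc1, Cd163) were chosen after their values were seen. Members and lists were chosen with earlier results of these data known. Deviations of same-numbered arrays from their tumour type means had correlations of 0.476 (number 1), 0.194 (number 2) and 0.861 (GFP). Arrays of unlike number reached 0.683 (carcinoma 2 and papilloma 1) and 0.478 (carcinoma 3 and papilloma 2). The means include the tagged arrays, so genes that differ with the tag shift the untagged arrays together. These values therefore cannot show whether a number pairs arrays, and the replicate block is an alternative only. Alternatives covered the probe set, dim genes, scaling, array weights, the prior, covariates and each array left out. Python 3.11.15 and matplotlib 3.10.9 made the plots.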

Additional observations from a re-analysis of the deposited data

Results flagged for a closer look

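Among the 4 carcinoma arrays, carcinoma GFP stood far from the other 3 in 21 of the 36 genes, judged by its gap to the nearest array as a share of the group's range, against Dixon's 95% limit for 4 values. The share was 0.965 for Esam, 0.959 for Cldn5, 0.935 for Icam2, 0.926 for Ptprb, 0.906 for Rasip1, 0.953 for Tek, 0.932 for Eng, 0.884 for S1pr1, 0.882 for Ramp2, 0.9 for Clec14a, 0.914 for Vwf, 0.948 for Egfl7, 0.968 for Mmrn2, 0.839 for Gpihbp1, 0.921 for Erg, 0.917 for Fli1, 0.973 for Sox18, 0.948 for Tal1, 0.909 for Lmo2, 0.88 for Apln and 0.944 for Prox1. The same held, with carcinoma GFP high, for 4.45% of all 18193 genes. Chance passes this limit in about 1 in 20 groups. The genes share their arrays, and the gap restates the difference between tagged and untagged arrays given above. Papilloma arrays were too few for this rule. Among the 5 untagged arrays, papilloma 2 stood apart for Egfl7, with a share of 0.767, above the limit for 5 values.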

How the results depend on the processing

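Over 17 alternatives to the comparison of tagged with untagged arrays, 30 of the 36 genes were called higher in every setting that tested them, and Sox7 in none (0.25 to 0.82, smallest limma adjusted p = 0.0765). Prox1 and Cd36 were not tested when dim genes were left out. Calls of Prox1, Lyve1, Cd36, Ets1 and Tm4sf1 were lost with single arrays left out, as given above. The number of members called was 30 to 35, and that of all genes was 6819 with array weights, 1462 within carcinoma and 861 within papilloma; the last 2 equal the fits without the other tagged array by construction. Leaving out 1 array gave 861 to 3955 genes. The median of the 36 genes was 5.20 with the most variable probe set and 4.63 to 4.83 with 1 array left out. Carcinoma against papilloma called 0 genes in each fit. In that comparison the difference changed sign in 1 or more settings for Cdh5, Prox1, Lyve1 and Cd36. Cd36 did so with array weights (-0.051), and Prox1, Lyve1 and Cd36 without both GFP arrays (-0.137, -0.030 and -0.077). Cdh5 did so within the GFP pair (0.28) and with the replicate block. With 1 array left out each of the 4 crossed 0: Cdh5 ran from -2.16 to 1.46, Prox1 from -0.44 to 1.12, Lyve1 from -0.98 to 1.43 and Cd36 from -0.77 to 0.95. With the replicate block, pairing arrays of the same number, Cdh5 was 0.201 and the median of the 36 genes -0.03, and the block, which leaves carcinoma 3 without a partner and so drops it, changed no call. It cannot be set on the tag, which is itself 1 of the numbers. The 6 interactions given kept their sign without each untagged array, with Lyve1 at 1.59 to 3.12 and Flt4 at 0.97 to 1.97. The causes of these changes were not tested.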
